A study of Mus musculus with 8 samples.

Results

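The genes described here are Nfe2l2, which encodes the transcription factor NRF2, and 8 genes known as its antioxidant targets: Nqo1, Gclc, Gclm, Srxn1, Txnrd1, Hmox1, Slc7a11 and G6pdx. They were chosen by name as known NRF2 genes and not by a threshold on their values, although earlier results of these data were known, and make up 9 of the 55401 gene identifiers in the count table. Their RNA was measured in livers of immunodeficient NOD Scid Gamma (NSG) mice that carried a xenograft of a human colorectal cancer line under the skin. One group of 4 liver libraries was taken from mice bearing Colo201, named by the series as the line with high FGF19, an intestinal hormone that acts on hepatocytes. The other group of 4 came from hosts of HCT116, named as the line with low FGF19. Each line had 2 libraries labelled male (Colo201 2L and 2R, HCT116 1L and 1R) and 2 labelled female (Colo201 4L and 4R, HCT116 3L and 3R). All hosts shared the strain and the presence of a tumour. Host age and the time since the xenograft cannot be stated (not given in the sources used here). With 1 line per FGF19 level and no tumour-free host among the samples, FGF19 and other differences between the tumours cannot be told apart.

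NRF2 is held at a low level by KEAP1, an adaptor that brings it to a ubiquitin ligase for degradation. Electrophiles and oxidants modify KEAP1, NRF2 then accumulates, pairs with a small MAF protein and binds antioxidant response elements in the promoters of its targets. In liver these targets supply glutathione, thioredoxin reduction, NADPH and conjugating enzymes. NRF2 is regulated mainly as a protein, so the RNA level of Nfe2l2 is not a measure of NRF2 activity.

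Depth was nearly even, at 61347603 to 65457482 estimated counts per library with 19370 to 20272 genes above 0. Sex-linked genes contradicted the sex label in all 8 libraries. Xist, which is transcribed from the inactive X chromosome, stood at 253 to 366 CPM (counts per 1000000 counts, scaled by TMM) under the male label and at 0.28 to 0.81 CPM under the female label. The 4 Y-linked genes examined were at most 0.0742 CPM under the male label and 9.06 to 63.5 CPM under the female label. Sex is therefore given here only as labelled, and every direction between labels holds for the label. Titles pair libraries by a number and tell them apart by L or R. Nothing in the labels says that L and R are separate animals, so the p-values here reflect only how far libraries scatter, and part of that scatter may be technical. Cyp7a1, the bile acid enzyme repressed by FGF19 signalling, was at 0.30 to 3.61 CPM in hosts of Colo201 and at 181 to 223 CPM in hosts of HCT116. Hepatocyte markers were abundant in every library, with 6 genes summing to 104267 to 159736 CPM.

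The promoter of Srxn1 is shown because Srxn1 was the one gene of the 9 that passed the test between lines. Srxn1 encodes sulfiredoxin, which repairs over-oxidised peroxiredoxins. The stretch below is the reference sequence at chr2:152105274-152105513 on the plus strand (RefSeq, GRCm38.p6), upstream of the RefSeq start of Srxn1, with capitals marking letters that match an antioxidant response element core.
Srxn1 promoter: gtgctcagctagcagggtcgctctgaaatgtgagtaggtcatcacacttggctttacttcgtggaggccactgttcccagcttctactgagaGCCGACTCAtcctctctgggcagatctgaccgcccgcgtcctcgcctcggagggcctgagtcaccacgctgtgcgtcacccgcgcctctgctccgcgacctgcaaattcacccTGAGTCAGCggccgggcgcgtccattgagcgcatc

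The element core was searched as TGACNNNGC or TGAGNNNGC on both strands, in windows from 250 bases before to 50 after each start. In Srxn1 the match TGAGTCAGC lies 45 to 37 bases before the start on the gene's strand and also contains TGAGTCA, the motif of AP-1. A second match on the other strand, read along the gene as GCCGACTCA, lies 158 to 150 bases before the start, and 1 more, GCTAGGTCA, lies after the start. Windows were matched for 7 of the 9 genes, with 9 windows in all since Txnrd1 has 3 starts, and 6 of these 7 genes had at least 1 match. The other matches, written along each gene's own strand, are given to show how the core letters differ among the genes.
Nfe2l2: TGACTCCGC
Gclm: GCACCGTCA
Txnrd1: GCTTTGTCA
Slc7a11: GCTTTCTCA
G6pdx: GCTCAGTCA

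Nfe2l2 and Srxn1 had the core on the gene's own strand, and Gclm, Txnrd1, Slc7a11 and G6pdx had it on the other strand, where it reads as the reverse complement. Distances to the start were 240 to 232 bases for Nfe2l2, 134 to 126 for Gclm, 97 to 89 for Slc7a11, 92 to 84 for the middle start of Txnrd1 and 57 to 49 for G6pdx. The Nqo1 window held no match to these letters. Over all 32817 RefSeq windows of the same length, 27.8% held at least 1 match (12.4% TGACNNNGC and 17.7% TGAGNNNGC) and 4.68% held 2 or more. These shares count windows, whereas the 6 of 7 above counts genes. Of the windows of Txnrd1, only that of the middle start held a match. A match describes letters in the reference and is not a measured binding site.

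Between lines, the NRF2 genes differed little as a group. Srxn1 was higher in hosts of Colo201 and passed the test, and the other 7 genes tested did not, with log2 fold changes (Colo201 minus HCT116) from -0.12 to 0.32. Slc7a11 did not enter the test because its counts were too low. At an adjusted p under 0.05 in edgeR's quasi-likelihood test, 1 of 8 genes was therefore called, where 4.78% of all 17669 genes tested were called (2.48% higher and 2.3% lower). The median log2 fold change of the 8 genes was 0.22, with 5 of them above 0, and that of all genes was 0.00. An unadjusted p under 0.05 was reached by 2 of the 8, Srxn1 and Nfe2l2, against 21.7% of all genes.

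**Figure D1:**
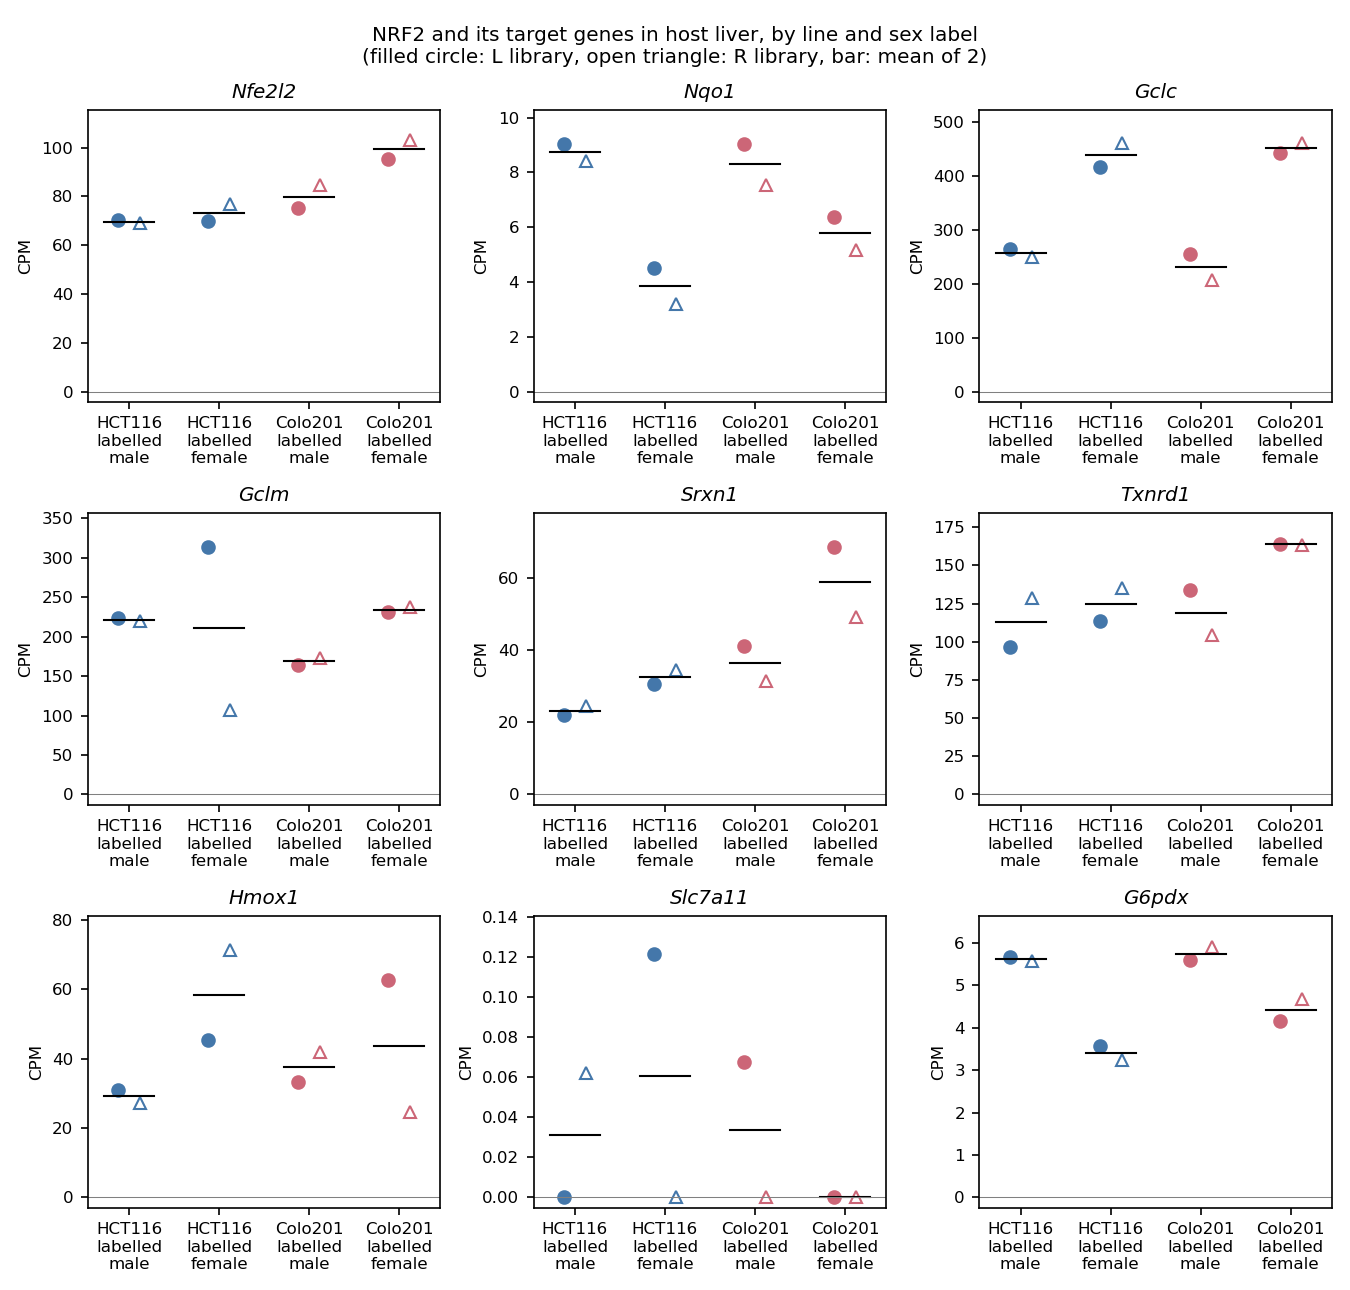
Scaled CPM (linear axis) of the 9 genes in each of the 8 liver libraries, grouped by tumour line and sex label; filled circles are L libraries, open triangles R libraries, and bars the mean of 2. Srxn1 is higher in both Colo201 libraries than in both HCT116 libraries under each label, Gclc follows the sex label with 418 to 462 CPM in all 4 libraries labelled female, and Slc7a11 is at 0 in most libraries.

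Levels differed widely among the genes when compared per length, on the authors' FPKM scale (fragments scaled to transcript length and depth). Gclc had the highest median over the 8 libraries at 85.2 FPKM (range 51.3 to 111), followed by Gclm at 32.9 (15.1 to 47.2). Hmox1, Nfe2l2 and Txnrd1 followed with medians of 19.4, 17.7 and 16.7 FPKM, and their ranges of 12.7 to 36.2, 17.1 to 24.6 and 12.7 to 20.9 overlapped. Srxn1 had a median of 10.7 FPKM (7.23 to 21.7) and also overlapped those 3. Nqo1, at 4.11 FPKM (1.83 to 5.39), and G6pdx, at 1.47 FPKM (0.93 to 1.78), formed the low end, and their ranges did not overlap each other. Slc7a11 was listed at 0 in 7 libraries and at 0.01 FPKM in HCT116 3L.

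Nfe2l2 (ENSMUSG00000015839, GRCm38 chromosome 2, 75675513 to 75704641, minus strand) stood at 75.2, 84.8, 95.5 and 103 CPM in Colo201 (2L, 2R, 4L, 4R). In HCT116 (1L, 1R, 3L, 3R) it stood at 70.2, 69.1, 70.1 and 76.7 CPM. Only Colo201 2L, the lowest of its group, fell below the highest HCT116 library, so the groups overlapped by that library. The means were 89.6 ± 12.2 and 71.5 ± 3.51 CPM (SD, n = 4 each). The log2 fold change was 0.32 (95% interval 0.12 to 0.52) and did not pass after adjustment (adjusted p = 0.0814, edgeR). DESeq2 called it at an adjusted p of 0.0229. Within each sex label both Colo201 libraries lay above both HCT116 libraries, as they did for 11% of all genes.

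Srxn1 (ENSMUSG00000032802, chromosome 2, 152105516 to 152111376, plus strand) measured 41.1, 31.5, 68.4 and 49.0 CPM in Colo201 (2L, 2R, 4L, 4R). It measured 22.0, 24.4, 30.6 and 34.6 CPM in HCT116 (1L, 1R, 3L, 3R). Within each label both Colo201 libraries lay above both HCT116 libraries, whereas across labels Colo201 2R lay below HCT116 3R. The group means were 47.5 ± 15.7 and 27.9 ± 5.73 CPM (SD, n = 4 each), a ratio of 1.70. On the log2 scale the difference was 0.75 (95% interval 0.43 to 1.06, SE 0.14), with an adjusted p of 0.0261 in edgeR's quasi-likelihood test.

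The direction of Srxn1 was kept without any one library, at log2 fold changes of 0.62 to 0.84, but the call was close to the threshold. The adjusted p from edgeR rose above it when any of 6 libraries was left out: to 0.0729 for Colo201 2L, 0.0581 for Colo201 4L, 0.0833 for HCT116 1L, 0.0598 for HCT116 1R, 0.0888 for HCT116 3L and 0.0589 for HCT116 3R. It was 0.146 without the sex label as a covariate and 0.118 with the L and R libraries of a number summed. Markers of pericentral hepatocytes, the zone around the central vein, also separated the lines: 8 genes summed to 6748 to 8561 CPM in hosts of Colo201 and to 10355 to 12442 CPM in hosts of HCT116, with 3 of 8 called lower (Glul, Cyp2e1 and Slc1a2) and 1 higher (Oat). Most of that sum was Cyp2e1, at 5550 to 7167 and 8734 to 10204 CPM. The sums of 8 periportal markers overlapped, at 6726 to 8355 and 7381 to 10594 CPM, but 3 of 8 were called higher in hosts of Colo201 (Cdh1 at 1.70, Gls2 at 0.74 and Hal at 0.59 on the log2 scale) and 1 lower (Pck1 at -0.50). The part of either zone in the Srxn1 difference was not tested. In whole liver, fewer cells of a type and less RNA per cell cannot be told apart.

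Txnrd1, the cytosolic thioredoxin reductase (ENSMUSG00000020250, chromosome 10, 82833951 to 82897712, plus strand), stood at 134, 104, 164 and 163 CPM in Colo201 (2L, 2R, 4L, 4R). Hosts of HCT116 had 96.8, 129, 114 and 135 CPM in 1L, 1R, 3L and 3R. The Colo201 libraries labelled female were the 2 highest of all 8, and Colo201 2R was among the lowest. Means of 141 ± 28.5 and 119 ± 17.1 CPM (SD, n = 4 each) gave a log2 fold change of 0.24 with a 95% interval of -0.07 to 0.54 (adjusted p = 0.348, edgeR).

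Glutathione synthesis begins with glutamate-cysteine ligase, whose catalytic subunit is encoded by Gclc and whose modifier subunit is encoded by Gclm. Gclc (ENSMUSG00000032350, chromosome 9, 77754535 to 77794485, plus strand) measured 255, 206, 443 and 461 CPM in Colo201 (2L, 2R, 4L, 4R). In HCT116 (1L, 1R, 3L, 3R) it measured 266, 251, 418 and 462 CPM. The values followed the sex label and not the line, with means of 341 ± 129 and 349 ± 107 CPM (SD, n = 4 each). The difference between lines was -0.06 on the log2 scale (adjusted p = 0.755, edgeR). Its 95% interval of -0.28 to 0.15 did not reach the 0.75 fitted for Srxn1. That interval reflects the scatter of libraries. As L and R may not be separate animals, it does not exclude such a change across hosts. Without Colo201 2R the sign turned, to 0.02.

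Gclm (ENSMUSG00000028124, chromosome 3, 122245557 to 122270732, plus strand) measured 165, 173, 232 and 237 CPM in Colo201 (2L, 2R, 4L, 4R), and 223, 220, 314 and 107 CPM in HCT116 (1L, 1R, 3L, 3R). The highest and the lowest value of all 8 were thus the L and R libraries of number 3, which differ by 1.55 on the log2 scale, whereas L and R of the other numbers differ by at most 0.08. The log2 fold change between lines was -0.12 with a wide 95% interval of -0.76 to 0.53 (adjusted p = 0.853, edgeR). It rested on those libraries: it was -0.40 without HCT116 3R, which passed (adjusted p = 0.0405), and 0.17 without HCT116 3L (adjusted p = 0.819). Gclm overlaps exons of the antisense transcript Gm17494, which had 1010 to 3680 counts against 6419 to 20660 for Gclm, and of the pseudogene Gm6061, so the split of reads is uncertain. Summed with Gm17494, HCT116 3R was still the lowest at 126 CPM against 188 to 345 CPM elsewhere. The FPKM of Gclc was 1.91 to 3.25 times that of Gclm in 7 libraries and 7.21 times in HCT116 3R.

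Slc7a11 (ENSMUSG00000027737, chromosome 3, 49892526 to 50443614, minus strand), the cystine transporter that feeds glutathione synthesis, had 4 counts in Colo201 2L, 4 in HCT116 1R, 8 in HCT116 3L and 0 in the other 5 libraries. Taking a fragment as 4 counts, every library was under the limit of 3 fragments that a count of 0 allows, or 0.178 to 0.203 CPM. These floors cover counting error only. Expression was thus not detectable at this depth in either group, and no fold change is given.

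Hmox1 and Nqo1 are among the most used readouts of NRF2. Hmox1 (ENSMUSG00000005413, chromosome 8, 75093621 to 75100589, plus strand), the inducible haem oxygenase, measured 33.3, 41.8, 62.8 and 24.5 CPM in Colo201 (2L, 2R, 4L, 4R). In HCT116 (1L, 1R, 3L, 3R) it measured 31.0, 27.2, 45.4 and 71.4 CPM. The spread lay within the lines and even within a title number, with a gap of 1.36 on the log2 scale between Colo201 4L and 4R. Group means of 40.6 ± 16.4 and 43.8 ± 20.04 CPM (SD, n = 4 each) gave a log2 fold change of -0.03 (95% interval -0.72 to 0.67, adjusted p = 0.973, edgeR). Its sign turned to 0.26 without Colo201 4R and to 0.20 without HCT116 3R, and neither passed. Macrophages that clear red cells also express Hmox1. The 10 Kupffer cell and macrophage markers summed to 195 CPM in Colo201 4R, the library with the lowest Hmox1, and to 322 to 548 CPM in the other 7, and all 10 were detected in each library. HCT116 3R, with the highest Hmox1, had the lowest of the 4 HCT116 sums. Erythroid markers summed to 552 to 1099 CPM in hosts of Colo201 and to 482 to 761 CPM in hosts of HCT116. The part of these cells in the Hmox1 values was not tested.

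Nqo1 (ENSMUSG00000003849, chromosome 8, 107388225 to 107403206, minus strand), the quinone reductase, measured 9.03, 7.56, 6.37 and 5.17 CPM in Colo201 (2L, 2R, 4L, 4R). In HCT116 (1L, 1R, 3L, 3R) it measured 9.04, 8.41, 4.50 and 3.20 CPM. The lines overlapped, at 7.03 ± 1.65 and 6.29 ± 2.88 CPM (SD, n = 4 each), although HCT116 3L and 3R lay below every Colo201 library. The log2 fold change was 0.25 (95% interval -0.18 to 0.68, adjusted p = 0.493, edgeR). This low level rests on 192 to 559 counts per library, and on fewer fragments if a fragment is taken as 4 counts.

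G6pdx (ENSMUSG00000031400, chromosome X, 74409483 to 74429194, minus strand) encodes glucose-6-phosphate dehydrogenase, which makes NADPH at the entry of the pentose phosphate pathway. It measured 5.59, 5.89, 4.15 and 4.68 CPM in Colo201 (2L, 2R, 4L, 4R) and 5.66, 5.57, 3.57 and 3.24 CPM in HCT116 (1L, 1R, 3L, 3R). As for Nqo1, the higher values were those of libraries labelled male in both lines. The log2 fold change between lines was 0.20 (95% interval -0.12 to 0.52, adjusted p = 0.452, edgeR). Exons of G6pdx overlap those of Ikbkg on the opposite strand, which had 556 to 4288 counts against 194 to 397 for G6pdx. The strand setting of the counting is unknown (not given in the sources used here), which leaves the value of G6pdx uncertain.

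**Figure D2:**
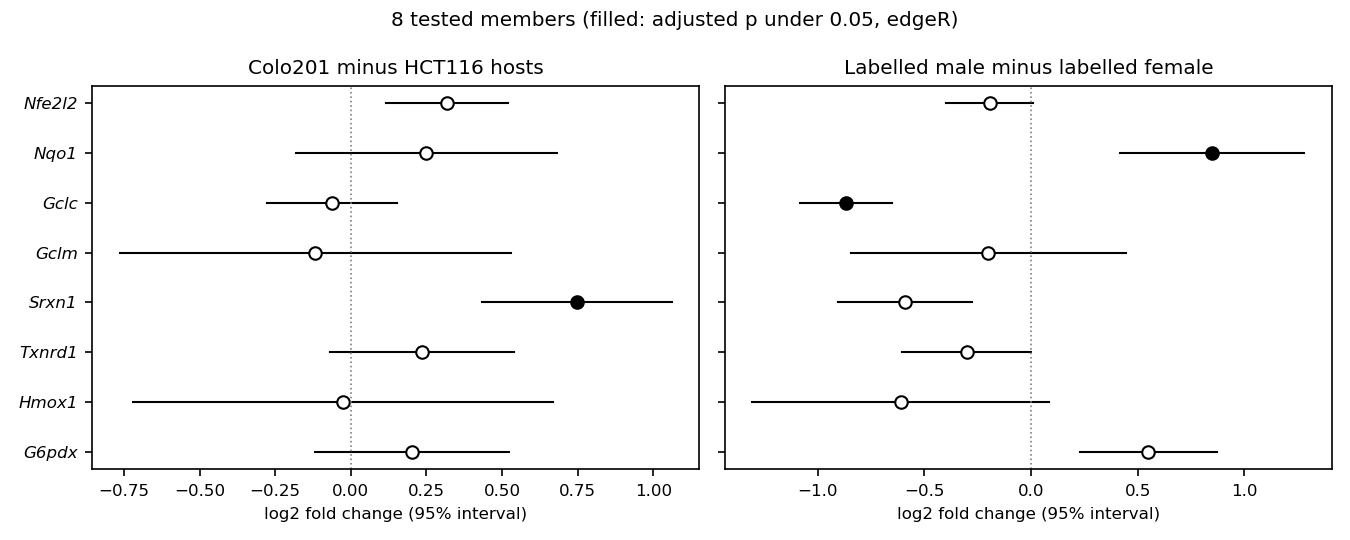
Fitted log2 fold changes of the 8 tested genes with 95% intervals, for Colo201 minus HCT116 hosts (left) and for libraries labelled male minus labelled female (right); filled points have an adjusted p under 0.05 in edgeR. Between lines only Srxn1 is filled, at 0.75, and between labels Nqo1, at 0.85, and Gclc, at -0.87, are filled on opposite sides of 0.

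Between sex labels 2 of the 8 genes tested passed, in opposite directions. Gclc was higher in libraries labelled female, at 446 ± 20.8 CPM against 245 ± 26.2 CPM in those labelled male (SD, n = 4 each), a ratio of 1.82. Labelled male minus labelled female, this was -0.87 ± 0.09 (SE) on the log2 scale (adjusted p = 0.00189, edgeR), and the 4 values of one label lay above all 4 of the other in both lines. Nqo1 went the other way, at 8.51 ± 0.70 CPM under the male label and 4.81 ± 1.32 CPM under the female label (SD, n = 4 each), or 0.85 ± 0.19 (SE) on the log2 scale (adjusted p = 0.0458, edgeR). G6pdx had the same direction, at 5.68 ± 0.149 and 3.91 ± 0.638 CPM (SD, n = 4 each), with a log2 fold change of 0.55 that did not pass (adjusted p = 0.0729, edgeR). Srxn1 had a log2 fold change of -0.59 that also missed the threshold (adjusted p = 0.0521, edgeR). Thus 1 of 8 genes was called higher and 1 lower in libraries labelled male, where 1.96% and 2.06% of all genes were (4.02% in either direction). An unadjusted p under 0.05 was reached by 4 of the 8, against 18.2% of all genes. Labels did not overlap for 3 of the 8 genes (Gclc, Nqo1 and G6pdx), against 9.64% of all genes.

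The Gclc call between labels held without any one library (adjusted p 0.00374 to 0.0102, edgeR), and was lost with L and R of each number summed (adjusted p = 0.0642). The Nqo1 call was lost without Colo201 2L (adjusted p = 0.0870), Colo201 2R (0.0582), Colo201 4R (0.101), HCT116 1L (0.131), HCT116 1R (0.118), HCT116 3L (0.113) or HCT116 3R (0.0930). It was also lost with L and R summed (0.201), without line as a covariate (0.0868), without scaling beyond library totals (0.0525) and without a filter on low counts (0.0533). Srxn1, not called between labels, passed under 6 of the other settings, DESeq2 and limma voom among them, and G6pdx passed in DESeq2. Gclm, at -0.20 (adjusted p = 0.776), passed between labels without HCT116 3R, at -0.48 (adjusted p = 0.0187), and turned to 0.09 without HCT116 3L (adjusted p = 0.917). Hmox1, at -0.61 (adjusted p = 0.343), passed without Colo201 4R, at -0.90 (adjusted p = 0.0450). For Nfe2l2 and Txnrd1 the log2 fold changes between labels were -0.19 (adjusted p = 0.293) and -0.30 (adjusted p = 0.276, edgeR). Several marker sums, hepatocyte ones among them, moved with the label. The 6 hepatocyte markers summed to 128471 to 159736 CPM under the male label and to 104267 to 125967 CPM under the female label. Most of that sum was Alb, the 1 of 6 called higher in the former. The 10 Kupffer cell and macrophage markers summed to 448 to 548 CPM under the male label and to 195 to 378 CPM under the female label. Of these 10, 2 (Cd68 and C1qa) were called higher in the former. The 6 endothelial markers summed to 203 to 236 and 125 to 171 CPM, with 3 of 6 called higher (Pecam1, Stab2 and Cdh5). The 8 periportal markers summed to 8319 to 10594 and 6726 to 8259 CPM. Pck1 was the most abundant of them in every library, at 3757 to 6220 and 2242 to 3752 CPM. Under the male label 1 of 8 was called higher (Pck1) and 3 lower (Cdh1, Cyp2f2 and Hsd17b13), so the sum does not speak for the list. Their part in the differences of Nqo1, Gclc and G6pdx between labels was not tested.

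Within the libraries labelled female, log2 fold changes between lines were 0.85 for Srxn1, 0.58 for Nqo1, 0.44 for Nfe2l2, 0.39 for Txnrd1 and 0.37 for G6pdx, and for each of these both Colo201 libraries lay above both HCT116 libraries. They were 0.16 for Gclm, 0.04 for Gclc and -0.42 for Hmox1, where the lines overlapped. Within the libraries labelled male they were 0.64 for Srxn1, 0.37 for Hmox1 and 0.20 for Nfe2l2, each with both Colo201 libraries above, and -0.39 for Gclm, with both below. The lines overlapped for Txnrd1 at 0.08, G6pdx at 0.03, Nqo1 at -0.07 and Gclc at -0.16. The 2 libraries of each line thus did not overlap for 5 of 8 genes in libraries labelled female and for 4 of 8 in those labelled male. In either direction this held for 45.2% and 48.2% of all genes, and a count over 8 genes is coarse against such shares. The 2 libraries of a line within a label are the L and R of a single title number. Line and title number thus cannot be told apart within a label, and the scatter used is that of L against R. With 2 libraries per line in each label, edgeR called 0 of the 8 genes in either label, where 0.492% and 0.232% of all genes were called. An unadjusted p under 0.05 was reached by 3 and 1 of them, against 14.1% and 13.1% of all genes. DESeq2 called 1, Srxn1 in libraries labelled female. The median log2 fold change of the 8 genes was 0.38 in libraries labelled female and 0.06 in those labelled male, against 0.01 and 0.00 for all genes. The difference between labels itself was tested as an interaction: 0 of the 8 genes passed in edgeR (adjusted p = 0.999983 for each), DESeq2 also called 0, and 0.0283% of all genes passed. An unadjusted p under 0.05 was reached by 0 of the 8, against 4.1% of all genes. Intervals of the interaction were wide, from -0.45 to 0.86 for Srxn1 and from -0.09 to 1.40 for Nqo1.

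**Figure D3:**
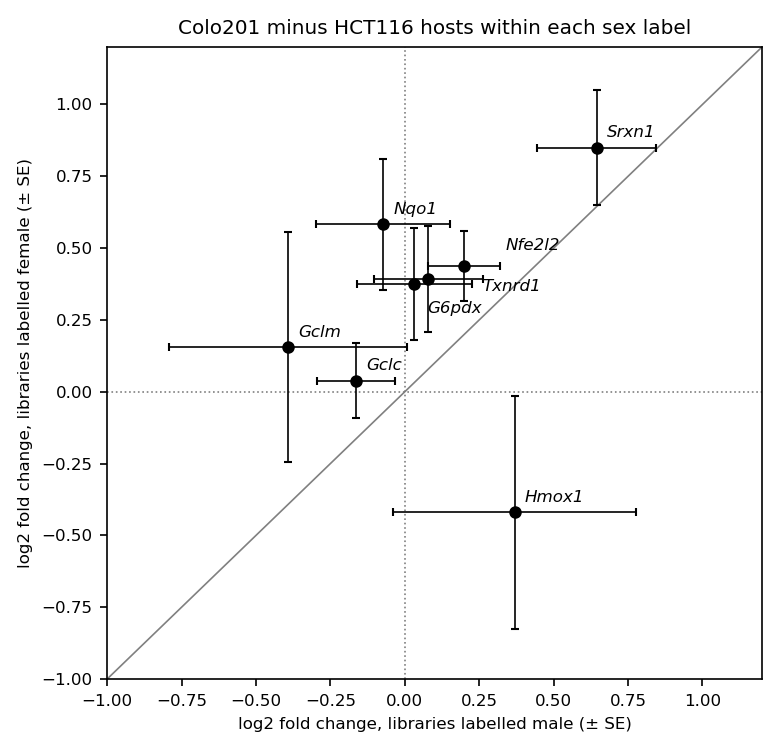
Log2 fold change between lines (Colo201 minus HCT116) of the 8 tested genes within libraries labelled male (x axis) and within those labelled female (y axis), with standard errors from edgeR; the diagonal marks equal values. Srxn1 is above 0 on both axes (0.64 and 0.85), 7 of the 8 genes lie above the diagonal, and Hmox1 lies below it at 0.37 and -0.42.

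Genes whose level followed that of Srxn1 over the 8 libraries were ranked by Pearson's r on log2 CPM among 12734 genes with a mean of at least 1 CPM. The closest were Cyb5r3 (NADH-cytochrome b5 reductase) at r = 0.981, Tsta3 (GDP-fucose synthesis) at 0.980 and Mmp15 (a membrane metalloproteinase) at 0.978, and 42 genes exceeded 0.95. These 8 points share line, label and library, so r is a description. Between lines the log2 fold changes were 0.48 for Cyb5r3 (adjusted p = 0.0198), 0.32 for Tsta3 (adjusted p = 0.0726) and 1.19 for Mmp15 (adjusted p = 0.0209, edgeR). No other gene of the 9 was among these 3.

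Beyond these genes, 86 further genes of the pathway were followed in 6 lists, of which 84 were tested (Ggt1 and Aldh3a1 were too low). The lists were chosen with earlier results of these data known. The shares called in them therefore describe the listed genes and are no test of the pathway. Comparing lines, edgeR called 6 higher and 6 lower under Colo201, or 14.3% against 4.78% of all genes, with a median log2 fold change of 0.03. The 6 that rose came from 5 of the lists, and 4 of the 6 that fell were detoxification and export genes, a list in which 0 rose. Of all genes tested, 2.48% were called higher and 2.3% lower, and the counts of each list stand against these shares. The median of 5 of the lists lay between 0.00 and 0.16, and that of the detoxification and export genes was -0.23.

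Among 13 genes that control NRF2, 1 rose and 1 fell. Sqstm1, encoding p62, which sequesters KEAP1 and is itself an NRF2 target, rose to 457 ± 77.0 from 337 ± 68.8 CPM (SD, n = 4 each), or 0.45 ± 0.09 (SE) on the log2 scale with an adjusted p of 0.0329 in edgeR. Bach1, a repressor that competes with NRF2 at the same elements, fell by 0.39 ± 0.09 (SE) in log2 units (adjusted p = 0.0493), with 34.7 to 46.1 CPM in hosts of Colo201 and 42.6 to 57.8 CPM in hosts of HCT116. The small MAF partners Mafk, at 0.53 (adjusted p = 0.0553), and Mafg, at -0.32 (adjusted p = 0.0972), had opposite signs and did not pass. Bach2 stood at 2.32 (adjusted p = 0.108), with 10.4 CPM in Colo201 2R and 0.42 to 1.93 CPM in the other 7 libraries; without Colo201 2R it was 1.38 (adjusted p = 0.0950, edgeR). Keap1 itself, at 52.3 ± 4.94 and 47.4 ± 8.27 CPM (SD, n = 4 each), stood at 0.15 (adjusted p = 0.551); it was named after its values were seen.

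In glutathione metabolism, 1 of 15 tested genes rose and 1 fell. Cbs, the first enzyme of the route from homocysteine to cysteine, measured 524, 444, 478 and 489 CPM in Colo201 (2L, 2R, 4L, 4R) and 297, 330, 323 and 290 CPM in HCT116 (1L, 1R, 3L, 3R). The groups did not overlap, as was so for 12.3% of all genes, and the log2 difference was 0.64 ± 0.08 (SE), with an adjusted p of 0.00896 in edgeR. Glrx, glutaredoxin, fell by 0.46 (adjusted p = 0.0394), to 46.8 ± 5.15 from 64.2 ± 2.95 CPM (SD, n = 4 each). Ggct (0.55, adjusted p = 0.118) and Oplah (-0.24, adjusted p = 0.140), both of the gamma-glutamyl cycle, and the glycine transporter Slc6a9 (0.51, adjusted p = 0.144) did not pass.

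Of 15 thioredoxin, peroxiredoxin and superoxide genes, only the extracellular superoxide dismutase Sod3 changed, at 59.6 ± 12.6 against 39.2 ± 6.87 CPM (SD, n = 4 each) and a log2 fold change of 0.60 (adjusted p = 0.0273, edgeR). Sod2 (-0.25, adjusted p = 0.166), Prdx5 (0.17, adjusted p = 0.229) and Prdx4 (0.18, adjusted p = 0.231) did not pass. Some of the peroxiredoxins, but not all, are substrates that sulfiredoxin restores.

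Among 10 NADPH genes, 2 rose. Pgd, 6-phosphogluconate dehydrogenase, which follows G6pdx in the pentose phosphate pathway, measured 46.7, 46.4, 55.2 and 53.5 CPM in Colo201 (2L, 2R, 4L, 4R) and 28.1, 31.3, 36.7 and 37.2 CPM in HCT116 (1L, 1R, 3L, 3R). All Colo201 libraries lay above all HCT116 libraries, by 0.60 ± 0.08 (SE) on the log2 scale (adjusted p = 0.00826, edgeR). H6pd, the related dehydrogenase of the endoplasmic reticulum, rose by 0.36 (adjusted p = 0.0446). Idh1 (-0.33, adjusted p = 0.0536), Taldo1 (0.21, adjusted p = 0.254) and Me1 (-0.23, adjusted p = 0.388) did not pass. In haem and iron handling 1 of 8 genes rose, the haem transporter Slc48a1, at 113 ± 28.2 against 75.4 ± 19.2 CPM (SD, n = 4 each), with a log2 fold change of 0.60 (adjusted p = 0.0284). Fech (-0.17, adjusted p = 0.278), Alas1 (-0.52, adjusted p = 0.401) and Ftl1 (0.21, adjusted p = 0.410) did not pass.

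Of 23 tested detoxification and export genes known as NRF2 targets, 4 fell and 0 rose, where 2.3% of all genes were called lower. An unadjusted p under 0.05 in either direction was reached by 9 of 23, against 21.7% of all genes. Gsta2, a glutathione transferase, measured 1.64, 1.74, 9.64 and 6.48 CPM in Colo201 (2L, 2R, 4L, 4R) and 15.0, 11.6, 68.4 and 71.2 CPM in HCT116 (1L, 1R, 3L, 3R). It was lower in every Colo201 library and, within each line, lower in libraries labelled male, and between lines it fell by 3.05 ± 0.15 (SE) in log2 units (adjusted p = 0.000144, edgeR). Its near copy Gsta1 stood at -2.99 (adjusted p = 0.0749), and reads may have been split between them. Aox1, an aldehyde oxidase, fell by 0.88 (adjusted p = 0.0133), Ugdh, which makes UDP-glucuronic acid, fell by 0.60 (adjusted p = 0.0381), and the canalicular exporter Abcc2 fell by 0.42 (adjusted p = 0.0374, edgeR). Ephx1 (-0.58, adjusted p = 0.0820) and Gstm2 (-0.34, adjusted p = 0.162) did not pass.

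**Figure D4:**
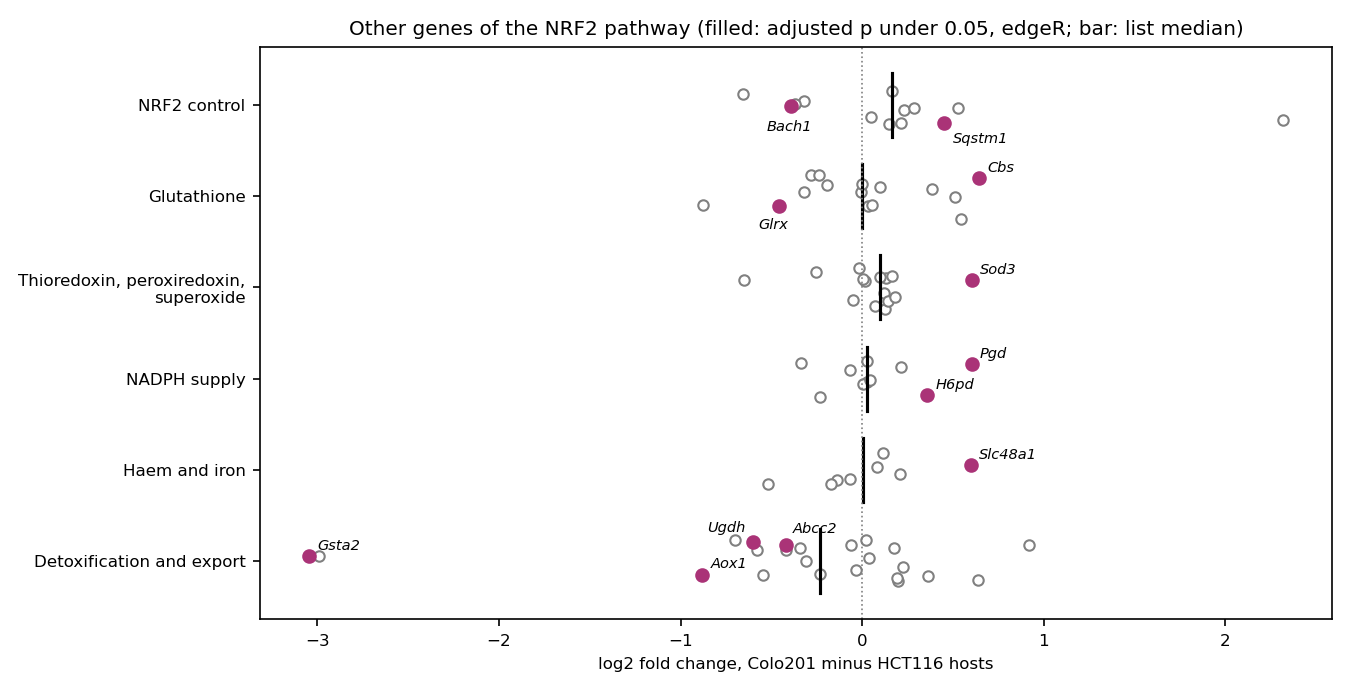
Log2 fold change (Colo201 minus HCT116 hosts) of the 84 tested pathway genes in 6 lists, with vertical scatter only to separate points; filled points have an adjusted p under 0.05 in edgeR and bars mark each list's median. Filled points lie on both sides of 0 in the NRF2 control and glutathione lists. They lie only above 0 in the thioredoxin, NADPH and haem lists. All 4 in the detoxification and export list lie below 0, with Gsta2 at -3.05.

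Between lines, Cbs, Pgd, Aox1 and Gsta2 passed without any one library. Bach1 and H6pd lost the call without any 1 of the 8 libraries (adjusted p 0.0778 to 0.138 and 0.0589 to 0.134, edgeR). Sqstm1 kept it only without Colo201 4R, Glrx only without Colo201 2L, Ugdh only without Colo201 2R and Abcc2 only without HCT116 3R, and their adjusted p rose to at most 0.108, 0.108, 0.113 and 0.115. Sod3 kept it only without Colo201 2R or 4R, and Slc48a1 only without Colo201 4R or HCT116 3R, with adjusted p up to 0.0899 and 0.0958. Among genes not called, Mafk passed without HCT116 1L (adjusted p = 0.0452) and under 3 other settings (DESeq2, limma voom and a filter of at least 1 CPM in 4 libraries). Idh1 passed without Colo201 2L (adjusted p = 0.0439) and under 7 other settings (the same 3, both other scalings and both FPKM pseudocounts). Mafg, Bach2 and Ephx1 passed in DESeq2, and Gsta1 in limma voom and with counts divided by 4.

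Between sex labels the calls in the same lists went mostly one way: 13 of the 84 tested genes were lower and 1 higher in libraries labelled male, or 16.7% against 4.02% of all genes (2.06% lower and 1.96% higher). Of those that were lower, 7 were in the detoxification and export list (Ephx1, Ugdh, Aox1, Gsta2, Gstp1, Ugt2b35 and Osgin1). Another 2 belonged to glutathione metabolism (Gsr and Gpx2), and Sqstm1, Cat, H6pd and Slc48a1 came from other lists. The following were named after their values were seen. Gstp1, a glutathione transferase, had the widest gap, at 309 ± 153 CPM under the male label and 3039 ± 936 CPM under the female label (SD, n = 4 each), or -3.36 on the log2 scale (adjusted p = 0.000616, edgeR). Gsr, glutathione reductase, stood at -0.56 (adjusted p = 0.00646), the same direction as Gclc. The 1 gene that was higher was Alas1, the first enzyme of haem synthesis, at 1.48 (adjusted p = 0.0457, edgeR). As between lines, the share called in lists chosen with earlier results known is only a description.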

How the data were processed

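Polyadenylated liver RNA was measured in 8 libraries from TRIzol extracts and a stranded TruSeq kit, per the labels' protocols. HISAT2 and StringTie were used with GRCm38, per the submitters' processing notes; versions, annotation and strand setting remain unknown (not given in the sources used here). The deposited estimated counts are whole numbers and were tested as they stand; 43.9 to 45.0% of the values from 1 to 16 were multiples of 4, against 25% by an even spread, so a fragment was taken as 4 counts for floors. The authors' FPKM, rounded, served for levels between genes and for alternatives. Symbols and positions came from GENCODE vM21 (55141 of 55401 identifiers).

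Scaling was by TMM and the filter by filterByExpr, over the 4 combinations of line and label. For 17669 genes, edgeR 4.0.16 (R 4.3.3; glmQLFit, glmQLFTest) compared lines with the sex label as covariate and labels with line as covariate (5 residual degrees of freedom). A fit with 4 means gave the contrasts within labels and the interaction (female label minus male label of the line effect). P-values were two-sided, adjusted by Benjamini-Hochberg over all genes tested, with a threshold of 0.05. The fits were also run on simulated independent libraries, without pairs of L and R or a pile-up on multiples of 4. Such data do not test those features.

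All 9 genes were reported whatever their result; of each pathway list, all called genes and up to 3 others with the smallest p; and the 3 genes most like a called member. Members and lists were chosen with earlier results of these data known. Alternatives were other scalings and filters, DESeq2 1.42.0, limma 3.58.1 voom, limma on log2 FPKM (computed from the deposited FPKM, pseudocounts 1 and 0.1), omission of the 20 most abundant genes, counts divided by 4, no covariate, libraries summed by title number, and each library left out. Promoter windows came from RefSeq.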

Additional observations from a re-analysis of the deposited data

Results flagged for a closer look

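In 5 of 78 groups of 4 libraries examined, 1 library stood apart from the other 3 by Dixon's gap criterion, which chance alone meets in about 5% of groups. Nfe2l2 in hosts of HCT116 was 76.7 CPM in 3R and 69.1 to 70.2 CPM in the others; without 3R its difference between lines was 0.32 on the log2 scale, as with it. Bach2 in hosts of Colo201 was 10.4 CPM in 2R and 0.986 to 1.93 CPM in the others. Mafk in hosts of HCT116 was 22.5 CPM in 1L and 17.8 to 18.1 CPM in the others. Oplah in hosts of HCT116 was 152.6 CPM in 1L and 162.3 to 164.3 CPM in the others. Slc7a11 in hosts of Colo201 was 0.0677 CPM in 2L and 0 in the others, a value under the limit that a count of 0 allows.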

How the results depend on the processing

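Of the 9 genes, edgeR called 1 between lines, 2 between labels, 0 within a label and 0 for the interaction, and it called 12 pathway genes and 845 of all genes between lines. DESeq2 called 2 between lines (Srxn1 and Nfe2l2), 4 between labels (Gclc, Nqo1, Srxn1 and G6pdx), 1 within a label and 1993 of all genes. Without the covariate the counts were 0 between lines, 1 between labels, 1 pathway gene (Cbs) and 155 of all genes. With libraries summed by title number, leaving 4 libraries, they were 0, 0, 1 (Gsta2) and 3. Without a filter on low counts, 1 gene of the 9 passed between labels. Leaving out each library in turn gave 0 to 1 of the 9 between lines, 1 to 2 between labels, 0 to 1 within a label (Gclm in libraries labelled female without HCT116 3L, where 3R alone stands for HCT116 and is assumed to vary like the other groups), 0 for the interaction, 4 to 7 pathway genes and 182 to 549 of all genes; fewer libraries were tested in each. With each library left out in turn, log2 fold changes reached both signs for Gclc between lines (-0.11 to 0.016, turned without Colo201 2R), Gclm between lines (-0.40 to 0.17) and between labels (-0.48 to 0.090, both turned without HCT116 3L), and Hmox1 between lines (-0.23 to 0.26, turned without Colo201 4R or HCT116 3R), with no call at the turned sign. The cause of the other changes was not tested. Of the remaining single-gene values under the alternatives, 779 kept direction and side of the threshold, 107 lost the call and 28 gained it. No scaling moved the median of all genes by 0.1 on the log2 scale. No paired analysis was possible because the lines share no title number. Slc7a11 was below its floor in all 8 libraries, so its level cannot be given at this depth.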
